A study of Mus musculus with 6 samples.

Results

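The immediate early genes described here are 10 genes whose transcription can begin within minutes of a stimulus: Fos, Fosb, Jun, Junb, Egr1, Atf3, Ier2, Ier3, Nr4a1 and Dusp1. They were taken by symbol from the deposited count table, where all 10 were found among 24421 genes, and 9 of them were among the 13977 genes with enough counts to be tested. Their RNA was measured in kidney cortex of PT-I-PpoI mice, which express the homing endonuclease I-PpoI specifically in proximal tubular epithelial cells, and of wild type mice, with 3 libraries in each group. I-PpoI cuts DNA at a long recognition sequence and leaves double-strand breaks, so the comparison asks how the cortex responds when proximal tubule cells carry a DNA-cutting enzyme. The promoter that drives the enzyme, the age and sex of the mice, and whether each library came from its own mouse are not given in the sources used here, so p-values measure only the spread between these libraries, which may be technical. The transgene itself was not analysed here, so the labels were not checked against it.

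Immediate early genes need no new protein synthesis to be switched on, because their promoters are held ready for kinases of the MAP kinase family and for second messengers that act on factors already in the nucleus, such as serum response factor and CREB. Most of the genes encode transcription factors or brakes on signalling, and both their RNA and their proteins are short-lived. In kidney they are known to be induced by ischaemia, toxins, mechanical handling and growth factors, in tubule cells and in vessels alike. The samples are bulk tissue, in which fewer cells of a type and less RNA per cell cannot be told apart.

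Libraries held 14290109 to 18045335 counted read pairs in PT-I-PpoI and 13582540 to 20861021 in wild type. The submitters' library names take 2 forms, and the labels attach no meaning to this. A hyphen stands before the final number for replicate 3 of PT-I-PpoI and for replicates 2 and 3 of wild type, and no hyphen for the other 3 libraries. By principal component analysis the libraries parted by the form of their name on the leading axis, which carried 43.1% of variance. Those without a hyphen lay at -23.1 and -30.15 (PT-I-PpoI) and -0.54 (wild type). Those with one lay at 11.8 (PT-I-PpoI) and at 20.4 and 21.5 (wild type). Within each form PT-I-PpoI lay below wild type, so this axis also followed the group. Wild type replicate 1 lay apart on the second component, at 29.2 against 0.13 or less in the other libraries. Differences within each name form are therefore given for the members and for several of the gene lists. No pair of libraries held the same counts within sampling noise.

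The 10 genes are compact. Their median span in the deposited annotation (mm10) was 3278.5 bp, against 21407 bp over the genes tested, and they had a median of 3 exon blocks, against 9. Jun, Junb and Ier2 each have 1 exon block. Ier2 (chromosome 8, 84661331 to 84662852) and Junb (chromosome 8, 84976909 to 84978748) lie 314056 bp apart on the same strand, and no exon of any of the 10 overlapped an exon of another gene in the table, so counting without strand did not mix them with annotated neighbours.

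RefSeq promoter windows (build GRCm38.p6, 250 bases before the annotated start and 50 from it on) were at hand for 8 of the 10 genes, all but Egr1 and Ier2. These 8 windows were searched on both strands for the cyclic AMP response element (CRE, TGACGTCA), the AP-1 site TGANTCA with C or G at N, the EGR site GCGNGGGCG, the GC box GGGCGG, the CCAAT box, the ETS core CCGGAA and the CArG box of serum response factor, and on the gene's strand for the TATA element TATAAA. The 5-base core of the CRE, TGACG, was added after a first search and lies within every full CRE, and EGR sites and GC boxes overlap. The CRE core was present in 6 of 8 windows (Fos, Fosb, Junb, Atf3, Nr4a1 and Dusp1), against 30.7% of 10631 windows of tested genes. The full CRE was present in 1 of 8, that of Dusp1, against 3.12% of windows of tested genes. TATAAA was present in 2 of 8, those of Fos and Junb, against 4.42%, and neither the AP-1 site (3.67% of tested genes) nor the CArG box (1.31%) had a match in these windows. GC boxes were present in 7 of 8, against 62.7%, EGR sites in 2 of 8 (Fosb and Nr4a1), against 10.5%, and CCAAT boxes in 4 of 8, against 38.1%. The ETS core was present in 1 of 8 (Nr4a1), against 26.8%. These matches describe letters in the windows and are not evidence of binding. The windows of 4 genes are shown, of which Jun and Nr4a1 had the same highest and the same lowest library. Fos, Jun and Nr4a1 were each lowest in the same wild type library. Dusp1 was highest in the PT-I-PpoI library that was lowest for Junb and Ier2. Sequences run 5′ to 3′ on the gene's strand, and capitals mark CRE, CRE core and TATAAA matches.
Fos (chr12:85473640-85473939, plus strand): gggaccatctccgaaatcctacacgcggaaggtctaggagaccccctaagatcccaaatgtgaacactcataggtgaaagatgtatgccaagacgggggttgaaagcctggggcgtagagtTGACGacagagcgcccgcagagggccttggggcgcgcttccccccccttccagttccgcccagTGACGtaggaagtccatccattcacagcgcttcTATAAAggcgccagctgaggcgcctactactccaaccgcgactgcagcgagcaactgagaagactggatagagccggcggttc
Jun (chr4:95052173-95052472, minus strand): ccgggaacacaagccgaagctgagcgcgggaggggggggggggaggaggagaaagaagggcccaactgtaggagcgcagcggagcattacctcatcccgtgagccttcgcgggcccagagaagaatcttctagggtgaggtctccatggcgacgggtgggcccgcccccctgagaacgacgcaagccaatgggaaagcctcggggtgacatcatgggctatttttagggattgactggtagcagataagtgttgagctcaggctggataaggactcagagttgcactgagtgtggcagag
Nr4a1 (chr15:101266596-101266895, plus strand): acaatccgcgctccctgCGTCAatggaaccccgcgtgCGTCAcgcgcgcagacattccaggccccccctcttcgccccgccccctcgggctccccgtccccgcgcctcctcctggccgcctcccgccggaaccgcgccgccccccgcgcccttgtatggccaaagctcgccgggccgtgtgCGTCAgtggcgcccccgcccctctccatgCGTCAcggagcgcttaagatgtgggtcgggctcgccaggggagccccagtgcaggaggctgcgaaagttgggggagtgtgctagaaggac
Dusp1 (chr17:26508423-26508722, minus strand): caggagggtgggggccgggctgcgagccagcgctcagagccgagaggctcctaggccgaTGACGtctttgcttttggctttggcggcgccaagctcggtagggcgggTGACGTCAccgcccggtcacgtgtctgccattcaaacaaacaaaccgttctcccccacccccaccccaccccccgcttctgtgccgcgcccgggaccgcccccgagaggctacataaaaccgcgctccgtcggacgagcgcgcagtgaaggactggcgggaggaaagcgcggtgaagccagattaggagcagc

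**Figure D1:**
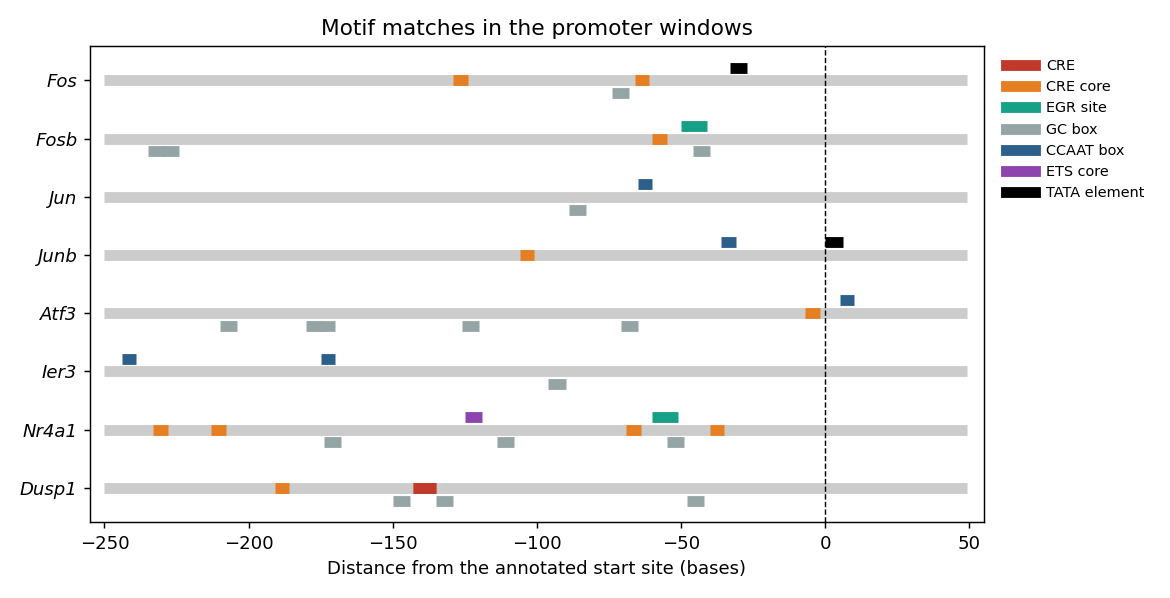
Motif matches in the promoter windows of 8 immediate early genes. The horizontal axis is the distance in bases from the annotated start, grey bars are the windows and coloured blocks are matches. Nr4a1 has 4 CRE cores, Dusp1 alone has a full CRE, and Jun and Ier3 have neither.

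No immediate early gene passed the test between PT-I-PpoI and wild type cortex. Of the 9 genes tested, 0 passed edgeR's quasi-likelihood test after Benjamini-Hochberg adjustment over all genes, where 0.136% of all genes passed (19 higher, 0 lower). DESeq2 also called 0 of the members, where it called 1.39% of all genes (0.952% higher and 0.437% lower). So did limma-voom (0.1% of all genes) and limma on the deposited rlog values (0 of 17918 genes). At an unadjusted p under 0.05 there were 2, Egr1 and Atf3, both higher, against 12% of all genes (6.42% higher). Fold changes were above 0 for 8 of the 9, against 50.1% of all genes, and their median on the log2 scale was 0.34, against 0.0004 over the genes tested. That median was 0.21 without wild type replicate 2 and 0.18 when the name form was a term. The number of genes that passed in all was itself unstable: 0 higher without PT-I-PpoI replicate 1, without PT-I-PpoI replicate 2 or without wild type replicate 3, 2 without wild type replicate 1, 9 without wild type replicate 2, and 261 higher with 364 lower without PT-I-PpoI replicate 3 (4.4% of genes, 1.84% higher and 2.56% lower), where still 0 members passed. Levels below are in CPM, the count as a share of its library's TMM-scaled total in units of 1 in 1000000, for replicates 1, 2 and 3 of each group in that order.

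Fos, the founding member of the Fos family and a partner of Jun in the dimeric factor AP-1, was at 3.60, 2.65 and 1.84 CPM in PT-I-PpoI, against 2.17, 0.91 and 2.54 CPM in wild type. The groups overlapped, and wild type replicate 2 was low. The log2 fold change was 0.50 ± 0.37 (SE), a 1.41-fold difference with a 95% interval from 0.78-fold to 2.55-fold (edgeR adjusted p = 0.598). Without wild type replicate 2 it was 0.21. The counts behind these levels were small, 26 to 68 in PT-I-PpoI and 12 to 51 in wild type.

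Fosb, a second Fos family subunit, had too few counts to be tested. Its counts were 5, 27 and 0 in PT-I-PpoI and 4, 2 and 7 in wild type. PT-I-PpoI replicate 2 stood above the rest, at 1.49 CPM (exact 95% Poisson interval 0.982 to 2.17), against at most 0.349 CPM in any other library (interval 0.14 to 0.718). The intervals cover counting error only. The 0 in PT-I-PpoI replicate 3 allows a level of up to 0.213 CPM at 3 counts of the library's total, and the upper end of its exact Poisson interval is 0.261 CPM. Fos was not highest in PT-I-PpoI replicate 2. With no filter on low counts, the log2 fold change of Fosb was 1.32 ± 0.95 (edgeR adjusted p = 0.653).

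Jun, the main partner of Fos in AP-1, was at 45.5, 48.1 and 43.1 CPM in PT-I-PpoI, against 52.3, 28.5 and 39.5 CPM in wild type. The 3 PT-I-PpoI levels lay inside the wild type range. The log2 fold change was 0.18 ± 0.19, with a 95% interval from 0.84-fold to 1.51-fold (edgeR adjusted p = 0.71). Junb, a Jun relative that can restrain Jun, was at 27.8, 22.4 and 14.2 CPM in PT-I-PpoI, against 18.7, 19.2 and 22.4 CPM in wild type. Here the PT-I-PpoI libraries spread on both sides of the wild type ones, and the log2 fold change was 0.10 ± 0.21, with an interval from 0.77-fold to 1.50-fold (edgeR adjusted p = 0.867).

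Atf3, a stress-induced member of the ATF/CREB family that can pair with Jun, was the 1 member whose groups did not overlap. It was at 2.17, 2.48 and 1.70 CPM in PT-I-PpoI, against 1.54, 1.51 and 1.10 CPM in wild type. Among all genes tested, 9.23% had all PT-I-PpoI libraries above all wild type ones, so 1 of 9 lies close to the background. The log2 fold change was 0.63 ± 0.26, a 1.55-fold difference with an interval from 1.02-fold to 2.34-fold (edgeR adjusted p = 0.399, unadjusted p = 0.0414). Its counts were 24 to 45 in PT-I-PpoI and 20 to 32 in wild type. Without 1 library at a time the log2 fold change ran from 0.48 to 0.76, with adjusted p from 0.148 to 0.823.

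Egr1, a zinc finger factor that is among the earliest genes to respond to MAP kinase signalling, had the highest fold change of the 9. It was at 19.7, 16.2 and 10.8 CPM in PT-I-PpoI, against 12.6, 4.39 and 9.16 CPM in wild type. The groups overlapped, since PT-I-PpoI replicate 3 was below wild type replicate 1, and wild type replicate 2 was the lowest library. The mean was 15.5 ± 4.49 CPM in PT-I-PpoI, against 8.71 ± 4.11 CPM in wild type (SD over 3 libraries), a log2 fold change of 0.81 ± 0.34 with an interval from 1.03-fold to 2.99-fold (edgeR adjusted p = 0.397, unadjusted p = 0.0399). It was 0.52 without wild type replicate 2 and 1.17 without wild type replicate 1. With each library left out in turn its adjusted p ran between 0.114 and 0.807 (edgeR).

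Nr4a1, an orphan nuclear receptor also called Nur77, was at 4.02, 4.19 and 4.18 CPM in PT-I-PpoI, against 5.15, 2.95 and 4.38 CPM in wild type. PT-I-PpoI libraries lay within a narrow band inside the wild type range, and this was the 1 gene with a fold change below 0, at -0.03 ± 0.22 on the log2 scale (interval 0.70-fold to 1.38-fold, edgeR adjusted p = 0.965).

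**Figure D2:**
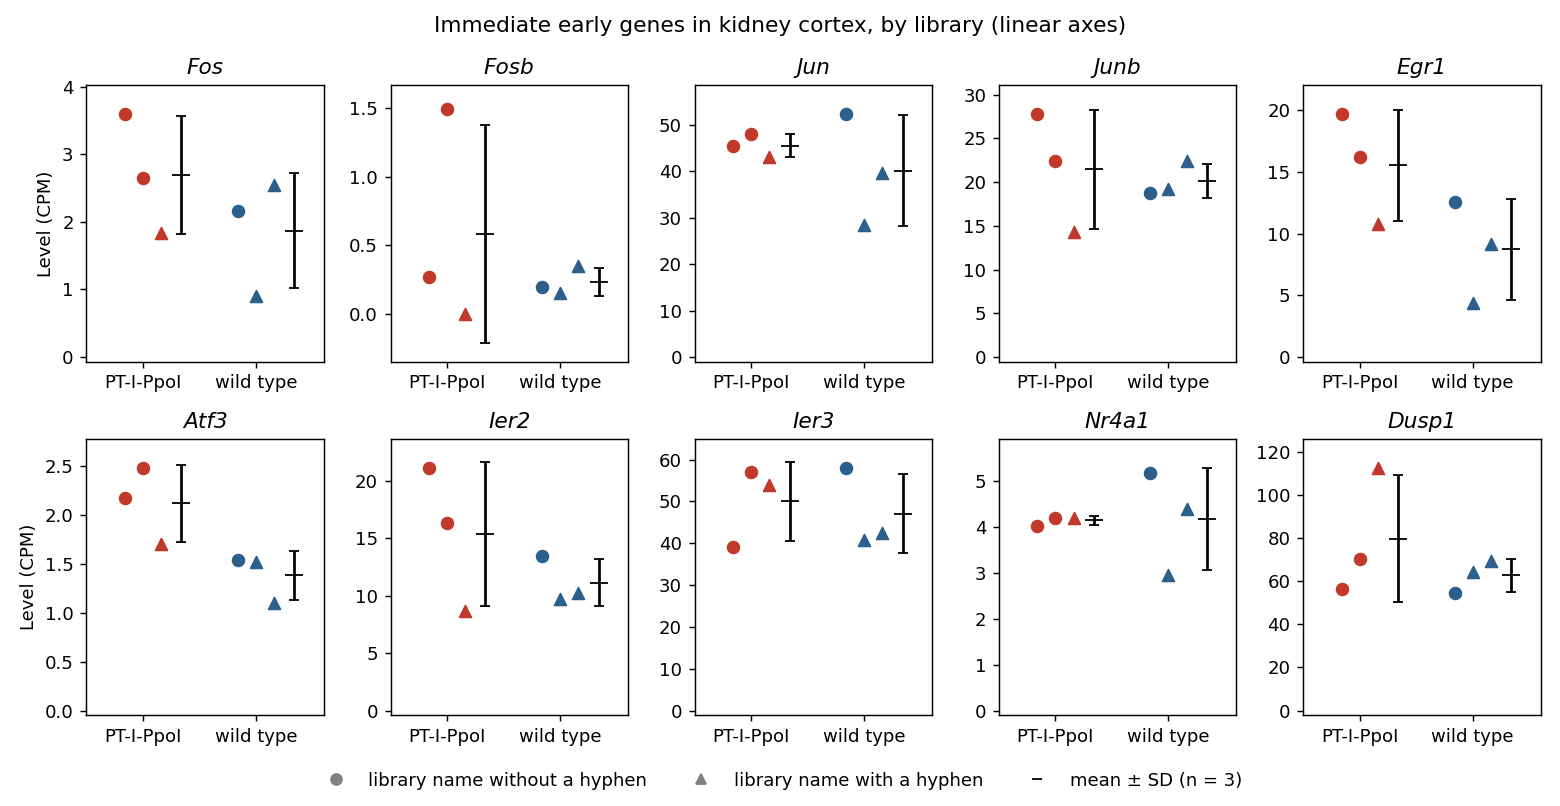
Levels of the 10 immediate early genes in CPM (vertical axes, linear) in PT-I-PpoI and wild type libraries. Circles are libraries whose names lack a hyphen, triangles those with one, and bars the mean ± SD of 3 libraries. Only Atf3 has groups that do not overlap, while Fosb is carried by PT-I-PpoI replicate 2 and Dusp1 by PT-I-PpoI replicate 3.

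Ier2, a small nuclear protein of the immediate early response, was at 21.2, 16.3 and 8.72 CPM in PT-I-PpoI, against 13.5, 9.69 and 10.2 CPM in wild type. PT-I-PpoI held both the highest and the lowest library. The log2 fold change was 0.47 ± 0.28 (interval 0.89-fold to 2.17-fold, edgeR adjusted p = 0.516). Leaving out PT-I-PpoI replicate 3 gave 0.75 (edgeR adjusted p = 0.0553). Without PT-I-PpoI replicate 1 it was 0.17. Ier3, also called IEX-1, which modulates survival and ERK signalling, was at 39.1, 57.0 and 53.9 CPM in PT-I-PpoI, against 58.1, 40.7 and 42.5 CPM in wild type. Replicate 1 was the low one of PT-I-PpoI and the high one of wild type, and the log2 fold change was 0.08 ± 0.17 (interval 0.81-fold to 1.39-fold, edgeR adjusted p = 0.868).

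Dusp1, the nuclear phosphatase that switches MAP kinases off and that glucocorticoids also induce, was at 56.5, 70.4 and 112.9 CPM in PT-I-PpoI, against 54.6, 64.3 and 69.7 CPM in wild type. PT-I-PpoI replicate 3 stood above the other 5 libraries. The log2 fold change was 0.34 ± 0.23 (interval 0.89-fold to 1.81-fold, edgeR adjusted p = 0.551), and it was 0.01 without that library.

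**Figure D3:**
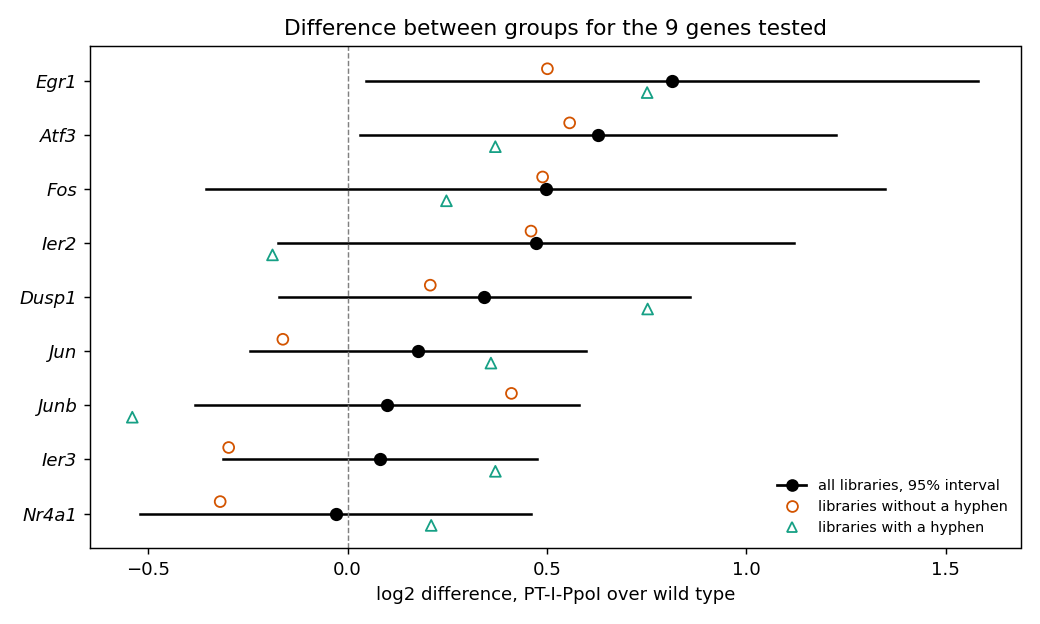
Differences between PT-I-PpoI and wild type on the log2 scale (horizontal axis) for the 9 genes tested. Black points and lines are edgeR fold changes with their 95% intervals, and open symbols are differences within libraries whose names lack a hyphen (circles) or have one (triangles). The intervals of Egr1 and Atf3 lie above 0 before adjustment, and the open symbols of Jun, Junb, Ier2, Ier3 and Nr4a1 fall on opposite sides of 0.

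Within the name forms, PT-I-PpoI was higher than wild type in both for 4 of the 9 genes. These were Egr1 (log2 differences of 0.50 without a hyphen and 0.75 with one), Atf3 (0.56 and 0.37), Fos (0.49 and 0.25) and Dusp1 (0.21 and 0.75). The other 5 differed in sign: Ier2 (0.46 and -0.19) and Junb (0.41 and -0.54) were higher in PT-I-PpoI only among libraries without a hyphen, and Jun (-0.16 and 0.36), Ier3 (-0.30 and 0.37) and Nr4a1 (-0.32 and 0.21) only among those with one. Each of these differences rests on 1 library on one side, and none was tested. The median was 0.41 without a hyphen (6 of 9 above 0) and 0.36 with one (7 of 9 above 0). Within a group, libraries with a hyphen minus those without differed by a median of -0.42 in PT-I-PpoI (6 of 9 genes below 0). In wild type the median was -0.47 (7 of 9 below 0), also untested. Counts within and between the name forms were not made over all genes, so they are not read as a trait of the members. With the form as a term in the edgeR fit, 0 members passed, where 0.458% of all genes did (0.351% higher and 0.107% lower). Dusp1 came nearest in this fit, with PT-I-PpoI above wild type by 0.49 ± 0.13 in log2 units (adjusted p = 0.158, edgeR). The Dusp1 value was 0.34 ± 0.23 without the term. Its highest library, PT-I-PpoI replicate 3, is the only hyphenated library of that group. Egr1 followed at 0.56 ± 0.23 (adjusted p = 0.354, edgeR) and Atf3 was at 0.51 ± 0.26 (adjusted p = 0.466, edgeR).

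The order of the libraries differed from gene to gene, with a few libraries recurring at the ends. Wild type replicate 2 was the lowest of the 6 libraries for 4 of the 9 genes (Fos, Jun, Egr1 and Nr4a1), at 1.13, 0.56, 1.30 and 0.46 below each gene's own mean in log2 CPM (deviations of -1.13, -0.56, -1.30 and -0.46). PT-I-PpoI replicate 1 was the highest for 4 (Fos, Junb, Egr1 and Ier2) and wild type replicate 1 for 3 (Jun, Ier3 and Nr4a1). PT-I-PpoI replicate 3 was the lowest library for Junb and Ier2, at -0.51 and -0.53, and the highest for Dusp1, at 0.70. Averaged over the 9 genes, the deviation was 0.29, 0.27 and -0.04 in PT-I-PpoI and 0.07, -0.49 and -0.10 in wild type, so the groups overlapped.

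**Figure D4:**
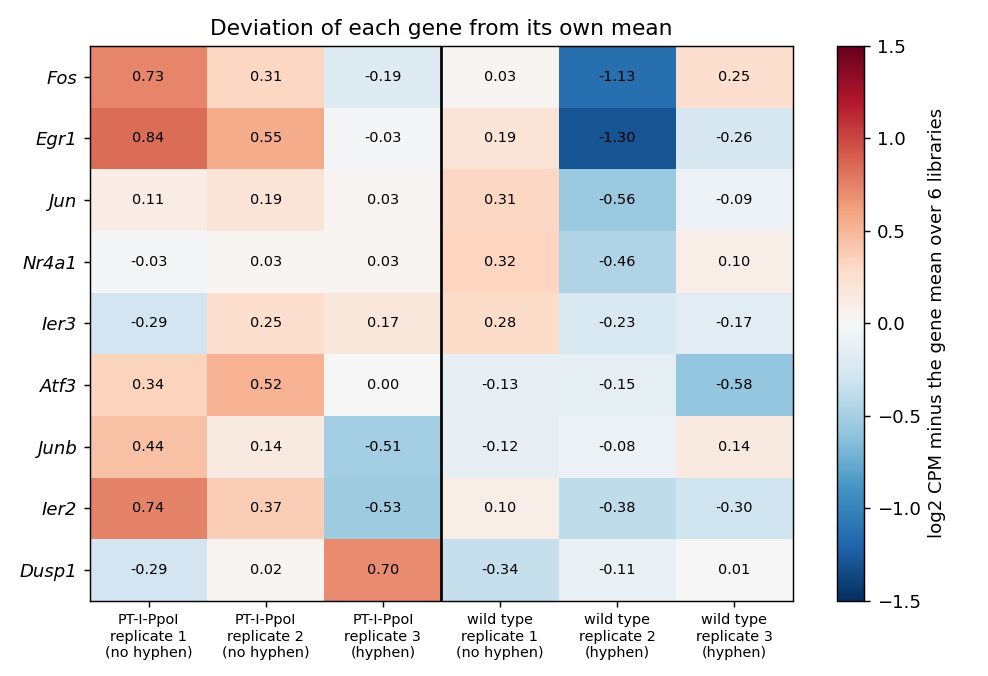
Deviation of 9 immediate early genes (rows) from their own mean over the 6 libraries (columns), in log2 CPM. Fos, Egr1, Jun and Nr4a1 are lowest in wild type replicate 2, while Dusp1 is highest and Junb and Ier2 lowest in PT-I-PpoI replicate 3.

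The spread between replicates was large for these genes. The median SD within groups was 0.36 in log2 CPM over the 9 genes, against 0.15 over all genes tested, and all 9 exceeded that figure. Low counts raise this SD, so each gene was also ranked among tested genes whose mean level lay within 2-fold of its own. Egr1 (SD 0.62) lay at the 98.8th percentile of these, Ier2 at the 98th, Dusp1 at the 97.6th, Jun and Junb at the 96.3rd, Ier3 at the 95.3rd and Fos at the 93.7th. Nr4a1 and Atf3 were less variable, at the 63.8th and 30.2nd.

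Levels between genes were compared per kilobase of exon, as CPM per kb over the 6 libraries (mean ± SD). The order was Ier3 (44.5 ± 7.96), Dusp1 (36.8 ± 10.99), Jun (13.4 ± 2.60), Junb (11.3 ± 2.47), Ier2 (8.72 ± 3.15), Egr1 (3.95 ± 1.75), Nr4a1 (1.68 ± 0.29), Fos (1.09 ± 0.43), Atf3 (0.89 ± 0.25) and Fosb (0.11 ± 0.14). Ranges over libraries were clear of each other at 2 steps of this order, between Dusp1 and Jun and between Atf3 and Fosb. At the other steps neighbours overlapped in range, although Junb exceeded Ier2, Ier2 exceeded Egr1 and Egr1 exceeded Nr4a1 in 6 of 6 libraries. Ier3 lay at the 86.4th percentile of all tested genes in CPM per kb and Fos at the 16.4th. Jund, an AP-1 subunit outside the 10 genes, lay above Jun and Junb, at 53.0 CPM per kb in PT-I-PpoI, against 55.9 CPM per kb in wild type.

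Relatives of the members gave no call either. Over all genes tested, 12% had an unadjusted edgeR p under 0.05 (6.42% higher). Of 14 other AP-1 family genes, 12 were tested and 0 passed by edgeR (unadjusted p under 0.05 in 1 higher and 1 lower), with a median log2 fold change of -0.06. The small Maf factor Mafg was at 25.9, 23.4 and 30.2 CPM in PT-I-PpoI, against 35.6, 33.2 and 33.3 CPM in wild type (log2 fold change -0.36 ± 0.11, edgeR adjusted p = 0.267). Jdp2, a repressor that pairs with Jun, averaged 9.10 ± 0.17 CPM in PT-I-PpoI, against 7.29 ± 0.37 CPM in wild type (0.32 ± 0.12). Mafk averaged 47.8 ± 3.89 CPM in PT-I-PpoI, against 54.2 ± 1.85 CPM in wild type. The groups did not overlap in 4 of the 12 tested, these 3 and Batf2, against 17% of all genes tested. The list's median was 0.02 among unhyphenated and -0.11 among hyphenated libraries. Of the EGR and NR4A relatives and NAB corepressors, 2 of 7 were tested and 0 passed (0 at an unadjusted p under 0.05). These were Nab1, at 36.2, 34.7 and 43.1 CPM in PT-I-PpoI, against 40.1, 41.0 and 41.8 CPM in wild type, and Nab2, at 21.5 ± 3.95 CPM in PT-I-PpoI, against 19.8 ± 2.38 CPM in wild type. Both are corepressors of EGR factors, and both had overlapping groups. Egr4 had 0 counts in all libraries, and Egr2, Egr3, Nr4a2 and Nr4a3 had at most 18 counts in any.

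Among 10 other dual-specificity phosphatases, 0 passed by edgeR (unadjusted p under 0.05 in 1 higher and 2 lower) and the median log2 fold change was -0.07 (0.12 among unhyphenated and -0.26 among hyphenated libraries). Dusp6, the cytoplasmic phosphatase of ERK and itself an ERK target, averaged 40.9 ± 2.51 CPM in PT-I-PpoI, against 49.8 ± 4.55 CPM in wild type (-0.28 ± 0.09, edgeR adjusted p = 0.318). Dusp4 averaged 8.40 ± 1.605 CPM in PT-I-PpoI, against 12.01 ± 2.12 CPM in wild type, and Dusp9 15.0 ± 1.36 CPM in PT-I-PpoI, against 11.8 ± 1.11 CPM in wild type. Of 41 other immediate early response genes tested, 0 passed (unadjusted p under 0.05 in 2 higher and 1 lower), 26 lay above 0 and 15 below, and the median was 0.17, but -0.004 among unhyphenated libraries alone and 0.07 among hyphenated ones. Hes1, a Notch target and repressor, averaged 28.9 ± 4.69 CPM in PT-I-PpoI, against 22.1 ± 0.59 CPM in wild type. Errfi1, a feedback inhibitor of the EGF receptor, averaged 509.2 ± 119.7 CPM in PT-I-PpoI, against 704.9 ± 73.3 CPM in wild type, and Klf6 32.4 ± 2.96 CPM in PT-I-PpoI, against 27.9 ± 0.49 CPM in wild type.

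Genes of the signalling that switches the members on were likewise not called. Of 14 upstream SRF, TCF, MRTF and CREB factors, 0 passed (unadjusted p under 0.05 in 0 higher and 1 lower), with a median log2 fold change of 0.02. The ternary complex factor Elk4 averaged 4.50 ± 0.64 CPM in PT-I-PpoI, against 6.26 ± 1.06 CPM in wild type (-0.48 ± 0.19, edgeR adjusted p = 0.379), its relative Elk1 10.1 ± 0.98 CPM in PT-I-PpoI, against 8.92 ± 0.45 CPM in wild type, and the coactivator Ep300 36.2 ± 2.71 CPM in PT-I-PpoI, against 33.7 ± 1.42 CPM in wild type. Of 18 upstream MAP kinase pathway genes, 0 passed (unadjusted p under 0.05 in 2 higher and 3 lower), with a median of -0.06. Map2k6, an activator of p38, averaged 13.0 ± 3.33 CPM in PT-I-PpoI, against 19.2 ± 2.16 CPM in wild type. Mapk7 (ERK5) averaged 14.2 ± 1.75 CPM in PT-I-PpoI, against 11.04 ± 0.62 CPM in wild type, and the ERK-activated kinase Rps6ka1 31.1 ± 9.50 CPM in PT-I-PpoI, against 22.7 ± 0.58 CPM in wild type.

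Heat shock genes, another rapid stress response, had a median of 0.12 on the log2 scale over the 12 genes tested. Of these, 0 passed by edgeR. An unadjusted edgeR p under 0.05 was found in 3 higher and 1 lower, against 12% of all genes tested (6.42% higher). The inducible Hsp70 genes came nearest. Hspa1b was at 19.2, 20.9 and 21.3 CPM in PT-I-PpoI, against 12.04, 16.7 and 12.8 CPM in wild type, with no overlap (log2 fold change 0.57 ± 0.14, edgeR adjusted p = 0.201). DESeq2 called it (adjusted p = 0.0392), where DESeq2 called 1.39% of all genes. Among all genes tested, 9.23% had all PT-I-PpoI libraries above all wild type ones. Hspa1a averaged 15.1 ± 1.02 CPM in PT-I-PpoI, against 10.98 ± 0.93 CPM in wild type (0.46 ± 0.11, edgeR adjusted p = 0.205). Hspa1a and Hspa1b are near-identical copies whose reads may be undercounted or split. The small chaperone Hspb1 averaged 13.9 ± 2.01 CPM in PT-I-PpoI, against 10.2 ± 1.64 CPM in wild type.

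**Figure D5:**
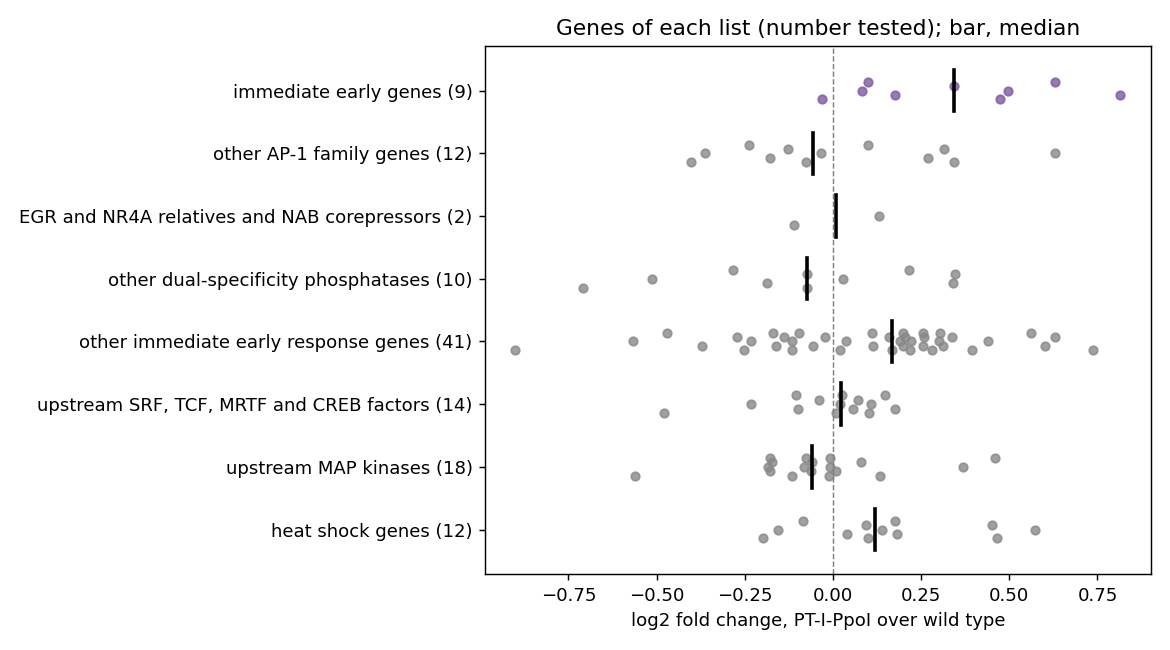
log2 fold changes (horizontal axis, PT-I-PpoI over wild type) of the tested genes of each list, with the number tested in brackets and the median as a bar. The immediate early genes have a median of 0.34, and the 7 other lists plotted (relatives, upstream signalling and heat shock) have medians from -0.07 to 0.17. In these 8 lists 0 genes were called by edgeR. Cell type lists are not plotted, and their medians ran from -0.23 (proximal tubule) to 0.87 (inner medulla). Those of thick ascending limb (0.45), collecting duct (0.44) and inner medulla markers lay above that of the immediate early genes.

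Summed marker levels did not overlap between the groups for 4 of the 10 cell type lists, and their part in the members' values was not tested. Over all genes tested, taken singly, 50.1% lay above 0, 0.136% passed by edgeR and 17% had groups that did not overlap. Sums follow their most abundant genes, such as Umod for thick ascending limb (mean 3904 CPM) and Kap for proximal tubule (27524 CPM). All 7 thick ascending limb markers lay above 0 and 1 passed (edgeR), and their summed level was 6165 to 6360 CPM in PT-I-PpoI, against 4268 to 4768 CPM in wild type. All 8 collecting duct markers lay above 0 and 1 passed, at 925 to 1061 CPM in PT-I-PpoI, against 671 to 704 CPM in wild type. Of 6 inner medulla markers 5 were tested, 5 lay above 0 and 2 passed, at 2385 to 2525 CPM in PT-I-PpoI, against 1799 to 2285 CPM in wild type. Most of that sum was Fxyd2, at 1997 to 2106 CPM in PT-I-PpoI, against 1660 to 2083 CPM in wild type. Fxyd2 alone had overlapping groups and a log2 fold change of 0.11. All 7 endothelial markers lay above 0 and 0 passed (3 before adjustment), at 643 to 677 CPM in PT-I-PpoI, against 523 to 599 CPM in wild type. Within unhyphenated and hyphenated libraries the median log2 differences were 0.46 and 0.48 for thick ascending limb, 0.46 and 0.39 for collecting duct, 0.83 and 0.77 for inner medulla, and 0.03 and 0.26 for endothelial markers, the last against 0.29 pooled. Summed levels overlapped between the groups for 10 proximal tubule markers (9 of 10 below 0, 32392 to 49730 CPM in PT-I-PpoI, against 44480 to 51837 CPM in wild type, with 0 passed and 2 lower before adjustment), the most abundant of the marker lists. They also overlapped for smooth muscle and pericyte markers (5 of 6 above 0, 127 to 172 CPM in PT-I-PpoI, against 112 to 147 CPM in wild type), macrophage and monocyte markers (5 of 8 above 0, 139 to 153 CPM in PT-I-PpoI, against 122 to 153 CPM in wild type), podocyte markers (5 of 5 above 0, 389 to 485 CPM in PT-I-PpoI, against 356 to 420 CPM in wild type), distal convoluted tubule markers (1 of 5 above 0, 1351 to 1602 CPM in PT-I-PpoI, against 1487 to 1784 CPM in wild type) and neutrophil markers (1 of 3 above 0, 3.33 to 6.14 CPM in PT-I-PpoI, against 2.94 to 6.69 CPM in wild type, with 1 listed gene not analysed here). In these 5 lists 0 genes passed (before adjustment 1 smooth muscle and 1 macrophage marker were higher and 1 distal convoluted tubule marker lower). Among unhyphenated and hyphenated libraries the medians were -0.45 and 0.10 for distal convoluted tubule markers and -0.10 and 0.23 for macrophage markers. Ren1 and Akr1b3 had 0 counts in all libraries. Whether their reads were lost in mapping or counting was not tested, so these genes are not called absent.

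The 5 genes outside the list whose levels varied most like the members' mean, after centring each group on its own mean, were Flrt3, Cd79b, Milr1, Ofd1 and Cnot1, with Pearson correlations from 0.992 to 0.999 over the 6 libraries. They were the closest of 13216 genes with a mean of at least 1 CPM, and 323 of these (2.44%) had a correlation of at least 0.9. The members did not share 1 pattern. Correlated with the mean of the other members, Egr1 was at 0.98, Jun 0.86, Fos 0.82, Nr4a1 0.77 and Ier2 0.60. Junb was at 0.38, Ier3 0.18, Atf3 0.13 and Dusp1 -0.71. Flrt3, Cd79b and Milr1 had low levels, with means of 1.68, 1.62 and 1.32 CPM. Flrt3, the closest, was at 2.22, 2.21 and 1.20 CPM in PT-I-PpoI, against 2.12, 0.757 and 1.54 CPM in wild type. Its lowest library, wild type replicate 2, was that of Fos, Jun, Egr1 and Nr4a1. None of the 5 passed the comparison of the groups (edgeR adjusted p from 0.671 to 0.955).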

How the data were processed

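The authors deposited raw read pair counts per gene. Per the labels' protocols, mRNA libraries from a strand-keeping kit were sequenced as pairs and mapped with HISAT2. Per the file headers, exons were counted with featureCounts 1.5.2, with both mates required and no strand, multi-mapping or multi-overlap option. The header names an mm10 annotation and the labels name mm9. Positions of 10 of 10 members met those of GRCm38.p6 (mm10), and 0 of 10 met those of NCBIM37 (mm9), so coordinates are mm10. The authors also deposited log2 values on the rlog scale, and the submitters' processing notes list DESeq2. The rlog values served for 1 alternative test.

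Counts were tested in R 4.3.3 with edgeR 4.0.16: expression filter with a minimum count of 10, TMM factors, quasi-likelihood test, two-sided, Benjamini-Hochberg adjustment over the 13977 genes kept, threshold 0.05. Standard errors are the log2 fold change divided by the square root of F, and intervals are 95%, unadjusted. The procedure was tested on simulated data. log2 CPM used a prior count of 2. Groups were taken from the sample titles. Library depth limits Fosb, Fos and Atf3 most, where 1 count is 0.0482 to 0.0757 CPM. DESeq2 1.42.0, limma-voom and limma on rlog values (limma 3.58.1), other scalings and filters, a replicate block, the library name form as a term, and each library left out were alternatives.

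The members and gene lists were chosen with earlier results of these data known. Named genes are the 10 members, up to 3 genes with the smallest p in each pathway list and any that passed, and the 5 genes most like the members' mean. Any others were chosen after their values were seen.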

Additional observations from a re-analysis of the deposited data

How the results depend on the processing

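No member passed under any of the 9 alternative fits or with any of the 6 libraries left out. In all, 19 genes were higher and 0 lower by edgeR. No filter on low counts gave 44 higher and 3 lower, DESeq2 133 and 61, the library name form as a term 49 and 15, and limma on the rlog values 0 higher. Leaving out 1 library gave 0 to 261 higher and 0 to 364 lower. The pathway lists had 0 calls by edgeR, 1 higher by DESeq2, and 0 to 3 higher and 0 to 6 lower with 1 library left out. The members' median log2 fold change was 0.0895 on the rlog values, which shrink the differences of genes with low counts by construction, and 0.21 to 0.43 with 1 library left out. Of 137 member values under alternatives, 7 changed sign, 6 of them with a library left out: Junb ran from -0.13 to 0.32, Ier3 from -0.0266 to 0.26, Jun from -0.0130 to 0.41 and Nr4a1 from -0.21 to 0.15. With the name form in the fit, Junb was at -0.0328. The cause was not tested. With the replicate number as a block 33 genes were higher and 7 lower, and 0 members passed. Deviations of same-numbered libraries correlated at 0.219, -0.128 and 0.163 over genes, so the numbers were not taken to pair the samples. Low counts limit Fosb, Fos and Atf3.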

Other observations

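Without PT-I-PpoI replicate 3, edgeR called 625 of 14219 genes (4.4%). Among them were 9 of the 110 pathway list genes tested and 0 members. That replicate is the only PT-I-PpoI library with a hyphen in its name, so group and name form are partly confounded in this fit. The part of the name form in these calls was not tested. The genes named here were chosen after their values were seen. Per1, a clock gene that is also an immediate early gene, was at 20.6, 16.5 and 61.7 CPM in PT-I-PpoI, against 53.8, 58.3 and 70.2 CPM in wild type (log2 fold change -1.71 without that library, edgeR adjusted p = 0.00432, and -0.90 ± 0.42 with it). PT-I-PpoI replicates 1 and 2 lay below every other library, and replicate 3 lay among the wild type ones. Plk3, a stress-responsive kinase, was at 6.19, 8.28 and 30.5 CPM in PT-I-PpoI, against 32.6, 13.9 and 18.2 CPM in wild type, with the same 2 libraries lowest. Myc, a growth-promoting transcription factor, was at 15.5, 18.2 and 6.66 CPM in PT-I-PpoI, against 9.49, 8.93 and 6.03 CPM in wild type. Gadd45b, a stress-induced regulator of MAP kinase signalling, was at 6.56, 8.33 and 2.83 CPM in PT-I-PpoI, against 4.67, 4.09 and 3.39 CPM in wild type. For both genes PT-I-PpoI replicates 1 and 2 were the highest libraries. Hes1 was also higher in this fit, and Errfi1, Hbegf, Mafg and Map2k6 were lower.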
